A study of Drosophila melanogaster with 6 samples.

Results

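The genes described here are the dpr (defective proboscis extension response) and DIP (Dpr-interacting protein) genes of Drosophila melanogaster. They are 32 of the 17803 genes whose spans were set against the peak lists, 21 dpr genes and 11 DIP genes, taken by name from the RefSeq annotation. All 32 names were matched. Dpr and DIP proteins are immunoglobulin-superfamily proteins of the cell surface. Each Dpr binds one or a few DIPs, and in the fly nervous system binding partners are found on neurons that contact each other, where they act in the matching of synaptic partners, in synapse growth and in neuron survival. The founding member, dpr1, was found through its part in the aversive response to salt.

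DNA of adult heads was assayed by MeDIP-seq. Sheared DNA is enriched with an antibody to 5-methylcytosine, and peaks are called in the enriched DNA against unenriched input. There were 3 libraries under the label 800 um, the lead group, and 3 under the label 0 um, the controls. All 6 libraries came from flies of genotype WT and carried the label F3, which the labels do not explain, and neither sex nor age is given in them. The labels do not say whether the sampled flies had themselves met lead, or that replicates came from separate flies, so p-values reflect the spread between the libraries at hand, and that spread may be technical.

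The lists held 3522, 1379 and 2536 distinct peaks in lead replicates 1, 2 and 3, and 1746, 2414 and 2157 in control replicates 1, 2 and 3. Lead replicate 1 had the longest list, with 32.1% of its peaks on X where the other 5 libraries had between 21.6% and 24.5%, and lead replicate 2 had the shortest. Read depth is unknown, and a place without a peak may still be methylated. A peak was not tested against other sources of signal, such as repeats. Heads hold many cell types, and a mark carried by a few of them cannot be told apart from a low level in all.

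A gene was counted as occupied in a library when a peak of that library overlapped its span or 1 kb on either side by at least 1 bp. By this rule 17 of the 32 genes were occupied in at least 1 library, against 12.2% of all genes. The 17 were 12 of the 21 dpr genes and 5 of the 11 DIP genes. Occupied in all 6 libraries were 4 of the 32 genes, DIP-lambda, DIP-alpha, DIP-beta and dpr6, against 3.68% of all genes. Another 10 were occupied in 2 to 5 libraries, and dpr1, dpr11 and DIP-kappa were occupied in 1 control library each.

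**Figure D1:**
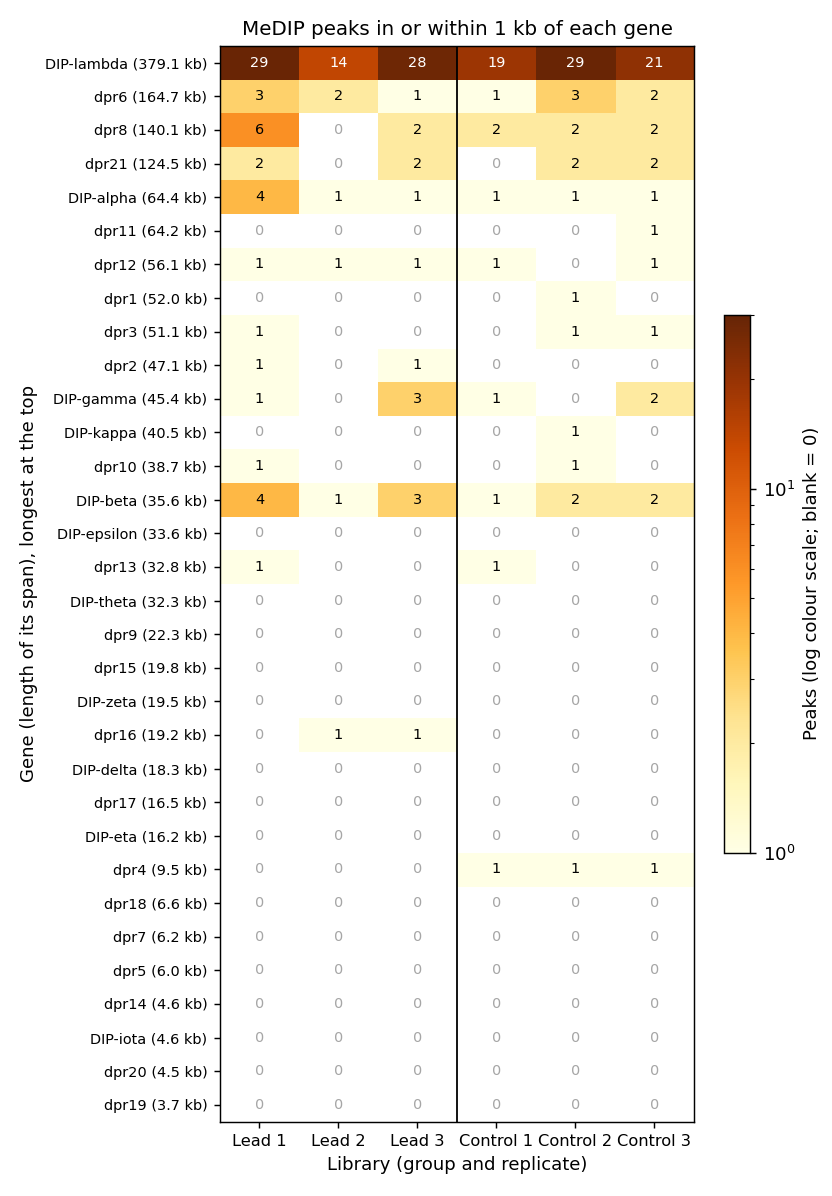
Number of peaks in or within 1 kb of each of the 32 genes (rows, longest gene at the top, length in kb beside its name) in each library (columns, lead to the left of control). DIP-lambda holds 14 to 29 peaks in every library, the next genes a few, and the short genes at the bottom mostly 0.

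Gene length went with occupancy among the members. The 17 occupied genes had a median length of 51.1 kb and the 15 others one of 16.2 kb, where the median over all genes was 1.69 kb. The longest gene with no peak in any library was DIP-epsilon, with 33.6 kb, and the shortest occupied gene was dpr4, with 9.47 kb. Across the 32 genes, length and the number of peaks summed over the libraries had a Spearman rho of 0.791, and one of 0.769 across the 31 genes other than DIP-lambda. These are descriptions across genes, which share the same libraries.

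Set beside other genes of like length, the share of dpr and DIP genes occupied in at least 1 library was close to the background. Presence in all 6 libraries was below the share of other genes in each class, but on at most 3 members per class. Under 20 kb it rests on 0 of 10 and 0 of 4 members, where the shares of other genes were low as well. All 9 members of 50 kb and over were occupied in at least 1 library, against 84.2% of the other 316 genes of that length. Between 20 and 50 kb it was 6 of 9 members (66.7%) against 63.3% of 711 others, between 5 and 20 kb 2 of 10 (20%) against 25.1% of 2554, and under 5 kb 0 of 4 against 5.62% of 14190. Presence in all 6 libraries was found for 3 of the 9 longest members and for 48.1% of the other genes of 50 kb and over. Between 20 and 50 kb it was found for 1 of 9 members and 21.5% of the others. Between 5 and 20 kb these were 0 of 10 and 6.11%, and under 5 kb 0 of 4 and 1.35%. The longest members carried 2.89 peaks per 100 kb and library, against 2.36 for the other genes of that class. Without DIP-lambda the value for these members was 1.20. Members between 20 and 50 kb carried 1.30 against 2.08 for the others. Between 5 and 20 kb it was 0.528 against 1.48, and under 5 kb 0 against 0.875. Below 50 kb members thus held fewer peaks per 100 kb than other genes in each class. At 50 kb and over this held only with DIP-lambda left out. That choice was made after seeing the data, and no gene was left out of the others. These differences were not tested.

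**Figure D2:**
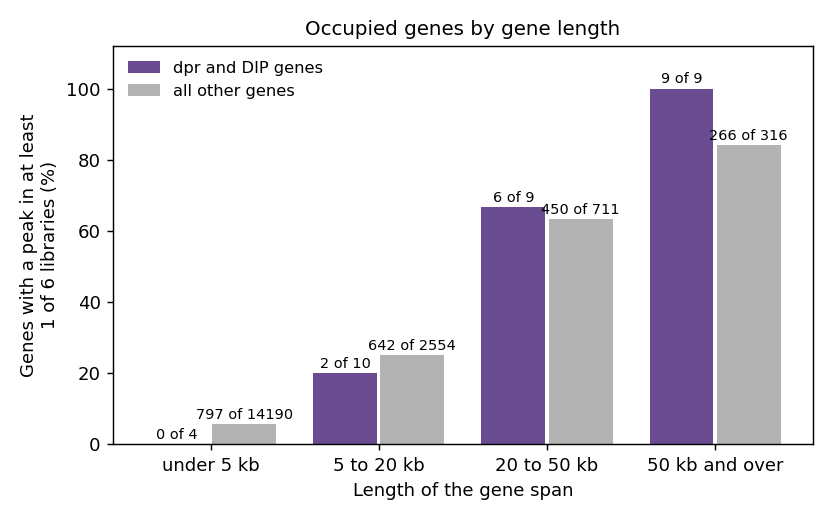
Share of genes with a peak in at least 1 of the 6 libraries (vertical axis, percent) in 4 classes of gene length, for the dpr and DIP genes (left bar of each pair) and all other genes (right bar), with the counts above each bar. In both sets the share is higher in each longer class, and 9 of 9 members of 50 kb and over were occupied.

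Lead and control libraries did not differ in how many of these genes they occupied by more than the spread between libraries. Occupied members numbered 12, 6 and 10 in lead replicates 1, 2 and 3, and 9, 11 and 11 in control replicates 1, 2 and 3. The lead range enclosed the control range. The means were 9.33 ± 3.06 in lead and 10.3 ± 1.15 in controls (SD, n = 3 each), a difference of -1 gene (exact permutation of the library labels, two-sided, p = 0.8). Without lead replicate 2 the difference turned to 0.667. No two-sided p below 0.1 can be reached with groups of 3, so none of these tests could pass the usual threshold.

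Peaks on the 32 genes numbered 54, 20 and 43 in lead replicates 1, 2 and 3, and 28, 44 and 36 in control replicates 1, 2 and 3. Means were 39 ± 17.3 in lead and 36 ± 8 in controls (SD, n = 3 each; difference 3.00, exact permutation p = 0.9, two-sided). The order of the libraries was close to that of their list lengths, and the difference was -4.5 without lead replicate 1, -1 without control replicate 1 and 12.5 without lead replicate 2.

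As a share of each library's own distinct peaks, the members held 1.53% (95% Wilson interval 1.18 to 2.00), 1.45% (0.941 to 2.23) and 1.70% (1.26 to 2.28) in lead replicates 1, 2 and 3. The shares were 1.60% (1.11 to 2.31), 1.82% (1.36 to 2.44) and 1.67% (1.21 to 2.30) in control replicates 1, 2 and 3. The intervals cover counting error only, and all 6 overlap. Means were 1.56% ± 0.125 in lead and 1.70% ± 0.112 in controls (SD, n = 3 each), a difference of -0.139 points that did not pass the test (exact permutation p = 0.3, two-sided). A share still depends on which peaks a list holds. With the 1379 peaks of highest score in each library the difference was -0.0483 points (exact permutation p = 0.8, two-sided), and with peaks of a score of at least 47, the median of all peaks, it turned to 0.0271 points (exact permutation p = 1, two-sided). With DIP-lambda left out the means were 0.579% ± 0.138 in lead and 0.611% ± 0.0904 in controls (SD, n = 3 each; exact permutation p = 0.8, two-sided).

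**Figure D3:**
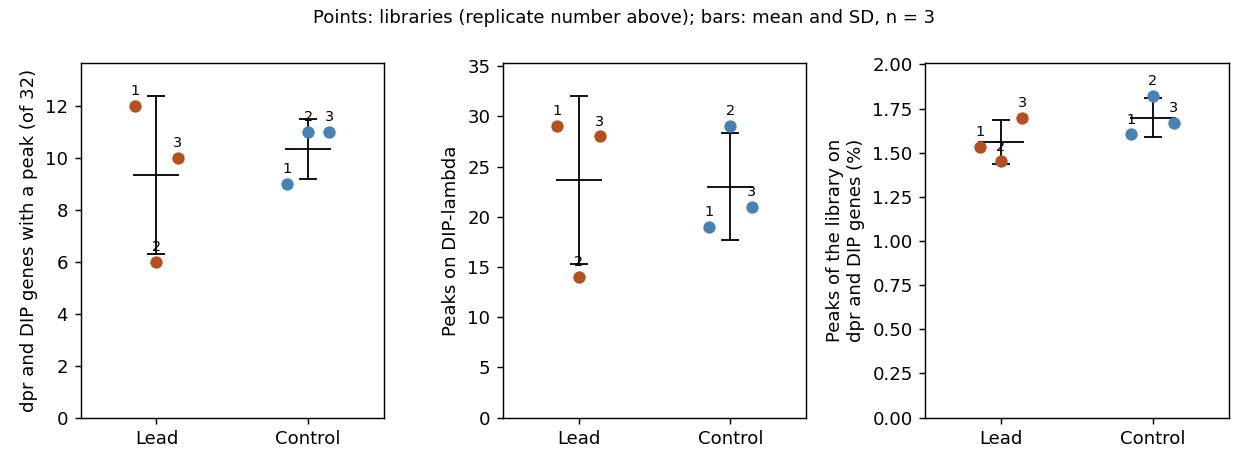
Occupied dpr and DIP genes, peaks on DIP-lambda and the percent of a library's peaks that lie on dpr and DIP genes (vertical axes), for lead libraries left and control libraries right. Points are libraries with their replicate number, bars are the mean and SD (n = 3), and in each panel the groups overlap.

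DIP-lambda, the longest of the 32 genes, lies on arm 2R at 326768 to 705848 (dm6; 379.1 kb). It held 29, 14 and 28 peaks in lead replicates 1, 2 and 3, and 19, 29 and 21 in control replicates 1, 2 and 3. The groups overlapped, with means of 23.7 ± 8.39 in lead and 23.0 ± 5.29 in controls (SD, n = 3 each; exact permutation p = 1, two-sided). This 1 gene took between 53.7% and 70.0% of each library's peaks on the 32 genes, and only 1 of all 17803 genes had more peaks summed over the libraries. By peaks per unit length it stood at place 25 of the 325 genes of 50 kb and over.

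The stretches on either side of DIP-lambda also carried many peaks. The gene had a mean of 6.16 peaks per 100 kb and library (3.69 to 7.65), the 500 kb beyond its higher-coordinate end 4.50 (3.40 to 5.60), and the 326.8 kb below its lower-coordinate end 4.34 (3.37 to 5.51). No other annotated gene overlaps the DIP-lambda span. The nearest other annotated gene, CG46302, lay between 153889 and 495527 bp from the regions with a peak on DIP-lambda. The part of this neighbourhood in the count for DIP-lambda was not tested.

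Peaks of the 6 libraries on DIP-lambda merged into 36 regions, of which 9 were shared by all 6 libraries and 9 were found in a single one. The region of highest score lay at 583245 to 583758 on 2R. Its peak stood at the 98.0, 94.5 and 97.5 percentile of the score in the lists of lead replicates 1, 2 and 3, and at the 96.5, 96.6 and 97.0 percentile in those of control replicates 1, 2 and 3. The score is the authors' own whole number per peak, of unstated meaning, and was used to rank peaks within a list. In the alternative with a score of at least 47, the same cut was applied to all lists, whose median scores ran from 41 to 54. The widest region, at 510400 to 513539 on 2R, spanned 3140 bp and was covered by 1 to 3 separate peaks in each of the libraries.

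Within DIP-lambda 1 region, at 395370 to 395762 on 2R, was called in all 3 control libraries and in 0 lead libraries. Its control peaks ranked low, at the 2.41, 31.6 and 11.7 percentile of the lists of control replicates 1, 2 and 3. The nearest peak of lead replicates 1, 2 and 3 was 11.9, 16.1 and 11.9 kb away. At 611674 to 612000 a peak was present in 3 lead libraries and in 1 control library, replicate 2.

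**Figure D4:**
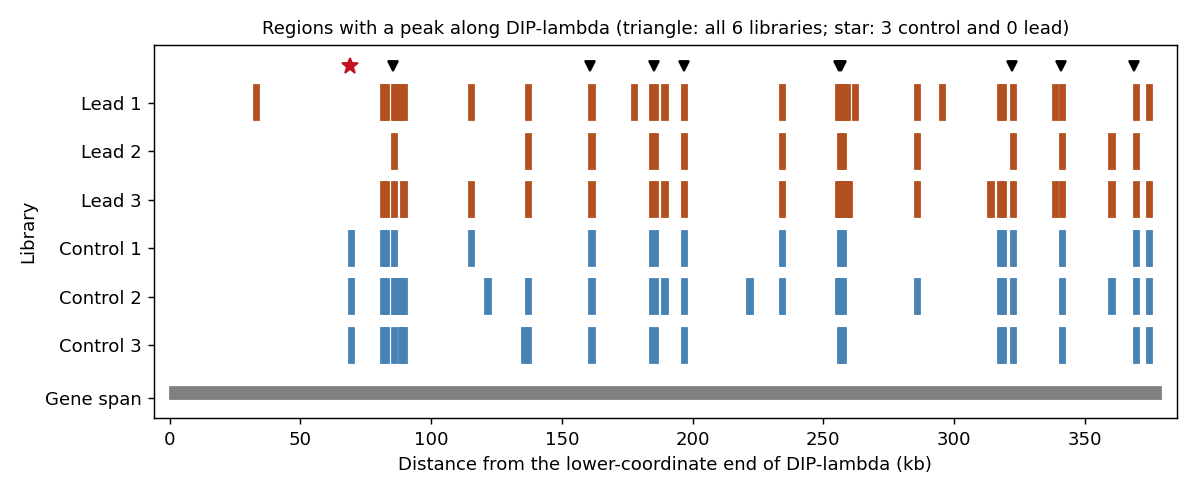
Regions with a peak along DIP-lambda (horizontal axis, kb from its lower-coordinate end), by library, lead above control. Boxes are regions, drawn at least 2 kb wide so that they can be seen. Triangles mark the 9 regions shared by all 6 libraries, and the star marks the region called in 3 control and 0 lead libraries.

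The gene dpr4 (RefSeq gene ID 3346160), on 3R at 11533483 to 11542949, was occupied in 0 lead and 3 control libraries. It is the 1 member, and the 1 gene of all 17803 (0.00562%), with that pattern. Its peak in control replicate 1 ran from 11543163 to 11543390, in control replicate 2 from 11543168 to 11543372 and in control replicate 3 from 11543113 to 11543379. They overlapped each other, lay beyond the higher-coordinate end of the gene and not in it, the nearest starting 164 bp away, and ranked at the 69.5, 61.6 and 62.4 percentile of their lists. The nearest peaks of lead replicates 1, 2 and 3 were 12.8, 171.5 and 11.9 kb away. It is described because of this pattern, so no test of it is given. Counting the gene span alone, dpr4 had no peak in any library. With peaks of a score of at least 47 it was occupied in 0 lead and 2 control libraries. The peak lost, that of control replicate 2, had a score of 46, where the median of its list was 41. The neighbour of dpr4, dpr5, on the same arm at 11499984 to 11505951, had no peak in any library.

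None of the 32 genes was occupied in 3 lead and 0 control libraries, a pattern held by 0.0618% of all genes. Occupied in 2 lead and 0 control libraries were dpr2 and dpr16. Over all genes, 0.618% were occupied in at least 2 more lead than control libraries and 0.242% in at least 2 more control than lead libraries. Neither dpr2 nor dpr16 had a region called in both of these lead libraries and in no control library.

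On dpr2 (2L at 10917015 to 10964153), lead replicate 1 had its peak at 10953433 to 10953664 and lead replicate 3 at 10947894 to 10948134. The 2 places are 5.30 kb apart, and the peaks ranked low, at the 3.46 and 21.6 percentile of their lists. At equal numbers of peaks per library, the 1379 of highest score, dpr2 was occupied in 0 lead and 0 control libraries.

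On dpr16 (3R at 5150908 to 5170121), the region at 5149522 to 5149932 had a peak in 2 lead libraries, replicates 2 and 3, and in 2 control libraries, replicates 2 and 3. The lead peaks ended at 5149932 and 5149920, within 1 kb of the gene. The control peaks ended at 5149892 and 5149874, just beyond 1 kb. They ranked at the 97.6 and 98.9 percentile in the lead and at the 96.0 and 96.5 percentile in the control lists. With 2 kb on either side dpr16 was occupied in 2 lead and 2 control libraries.

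**Figure D5:**
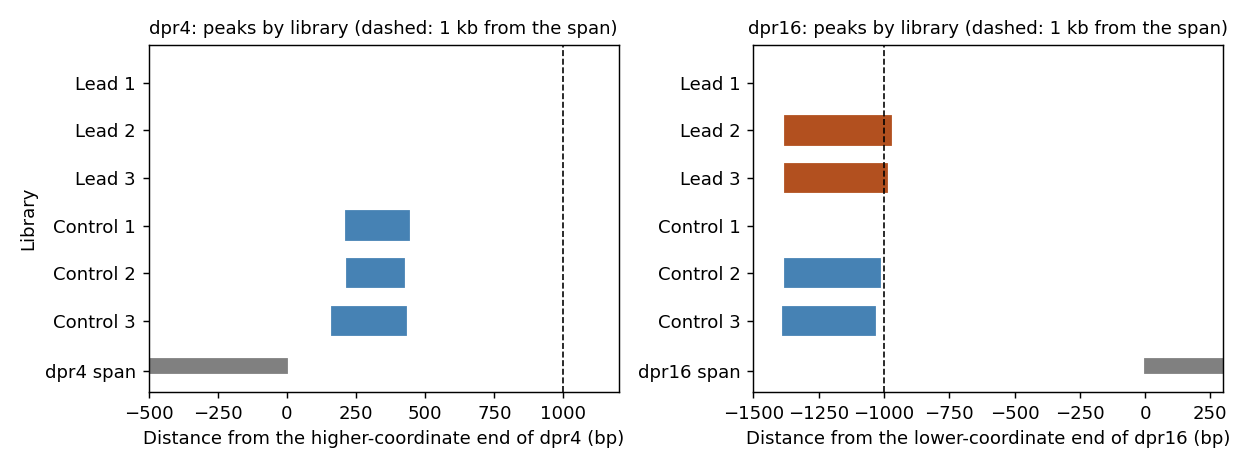
Peaks at dpr4 (left) and dpr16 (right) by library, lead above control, with the distance in bp from the end of the gene span on the horizontal axes. Boxes are single peaks, grey bars the gene spans and dashed lines the 1 kb limit. At dpr4 the 3 control libraries have a peak and the lead libraries none, and at dpr16 the limit passes between the ends of the lead and the control peaks.

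The 3 X-linked members with peaks differed between libraries mainly through lead replicate 1. On DIP-alpha (X at 3507245 to 3571649), peaks numbered 4, 1 and 1 in lead replicates 1, 2 and 3, and 1 in each control library (exact permutation p = 1, two-sided). DIP-beta (X at 21422115 to 21457738) had 4, 1 and 3 in lead replicates 1, 2 and 3, and 1, 2 and 2 in control replicates 1, 2 and 3 (exact permutation p = 0.5, two-sided). On dpr8 (X at 14322226 to 14462351) there were 6, 0 and 2 in lead replicates 1, 2 and 3, and 2 in each control library (exact permutation p = 1, two-sided). In all 3 genes the highest count was in lead replicate 1, and the other counts of the groups overlapped. That library also had the longest list and the highest X share, and their part in these counts was not tested. On dpr8, 4 of the 7 regions were found in lead replicate 1 alone, with peaks between the 1.11 and 29.4 percentile of its list. The X-linked dpr14 and dpr18 had no peak in any library.

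The known binding partners did not share one pattern. DIP-alpha binds Dpr6 and Dpr10, a pairing used by motor neurons and by neurons of the optic lobe. DIP-alpha and dpr6 were each occupied in 3 lead and 3 control libraries, and dpr10 in 1 and 1. On dpr6 (3L at 9974651 to 10139360; 164.7 kb), peaks numbered 3, 2 and 1 in lead replicates 1, 2 and 3, and 1, 3 and 2 in control replicates 1, 2 and 3. The groups had the same mean of 2.00 peaks. Its region at 10065230 to 10066002 is the 1 region outside DIP-lambda, of the 74 on these genes, that all 6 libraries shared, and these peaks stood between the 77.7 and 89.1 percentile of their lists. On DIP-alpha all 6 libraries had a peak, but no single region did: the region at 3537341 to 3537720 had one in 3 lead libraries and in control replicate 3, and the region at 3545016 to 3545368 in lead replicate 1 and in control replicates 1 and 2. The best-ranked peak on DIP-alpha ranged from the 0.653 percentile, in lead replicate 2, to the 71.9 percentile, in lead replicate 1. DIP-alpha was occupied in 2 lead libraries and 1 control library at equal numbers of peaks, and in 1 and 0 with a score of at least 47, while dpr6 was occupied in 3 and 3 under both.

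DIP-beta binds Dpr8, Dpr9 and Dpr21 among others. DIP-beta was occupied in 3 lead and 3 control libraries, dpr8 in 2 and 3, dpr21 in 2 and 2, and dpr9 in 0 and 0. At equal numbers of peaks the counts were 3 lead and 1 control for DIP-beta, 1 and 3 for dpr8, and 0 and 0 for dpr21. DIP-beta had 5.76 peaks per 100 kb and library on a span of 35.6 kb, close to the 6.12 of DIP-lambda counted with its flanks. The members between 20 and 50 kb, DIP-beta included, had 1.30 together, and the other genes of that class 2.08. The DIP-beta region at 21425636 to 21425925 was called in 3 lead and 2 control libraries. Another, at 21435594 to 21435932, was called in 2 lead and 3 control libraries. On dpr21 (2R at 3066499 to 3191011), peaks numbered 2, 0 and 2 in lead replicates 1, 2 and 3, and 0, 2 and 2 in control replicates 1, 2 and 3. These peaks fell in 4 regions, none of them with a peak in more than 3 libraries.

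DIP-gamma binds Dpr11, Dpr15, Dpr16 and Dpr17; with Dpr11 it acts in the visual system between photoreceptors and their target neurons. On DIP-gamma (3R at 28925004 to 28970372), peaks numbered 1, 0 and 3 in lead replicates 1, 2 and 3, and 1, 0 and 2 in control replicates 1, 2 and 3. The libraries without a peak were lead replicate 2 and control replicate 2, and the groups overlapped. Of its partners, dpr11 was occupied in 0 lead libraries and 1 control library and dpr16 in 2 and 0, as described above, while dpr15 and dpr17 had no peak in any library. DIP-delta binds Dpr12, a pairing that acts in the mushroom body between its intrinsic neurons and dopaminergic axons. DIP-delta had no peak in any library. On dpr12 (2R at 5804712 to 5860831), 1 region at 5844967 to 5845280 was called in every library but control replicate 2. Its peaks ranked at the 36.9, 52.2 and 42.1 percentile in lead replicates 1, 2 and 3, and at the 75.0 and 63.7 percentile in control replicates 1 and 3. Occupancy of dpr12 turned to 1 lead and 2 control libraries both at equal numbers of peaks and with a score of at least 47.

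Of the 9 members on arm 2L, 3 were occupied in at least 1 library, namely dpr2, dpr3 and DIP-kappa, where 9.64% of all 2L genes were. The 2L genes without a peak were dpr19, DIP-epsilon, DIP-zeta, DIP-eta, DIP-theta and DIP-iota, between 3.74 and 33.6 kb long. Of these, DIP-epsilon (33.6 kb) and DIP-theta (32.3 kb) fall between 20 and 50 kb, where 63.3% of other genes were occupied. All 5 members on 2R were occupied, where 10.3% of 2R genes were, but these members are between 32.8 and 379.1 kb long, classes in which most other genes were occupied as well. The counts were 2 of 4 on 3L (12.6% of 3L genes), 4 of 8 on 3R (11.3%), 3 of 5 on X (19.6%) and 0 of 1 on chromosome 4 (8.77%), which is dpr7. The members of an arm differ in length from its other genes, and the arms were not compared. On dpr3 the 1 region, at 2072539 to 2072796 on 2L, had a peak in 1 lead library and 2 control libraries. The remaining members with peaks, dpr10 and dpr13, were each occupied in lead replicate 1 and in 1 control library, by the same region in each case. No peak was found on dpr5, dpr7, dpr9, dpr14, dpr15, dpr17, dpr18, dpr19, dpr20, DIP-delta, DIP-epsilon, DIP-zeta, DIP-eta, DIP-theta and DIP-iota.

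By region, 72 of the 74 regions lay in the gene span, and the other 2 were those beside dpr4 and dpr16. Only 1 region, on DIP-alpha at 3511271 to 3511735 of X, also overlapped another annotated gene, lncRNA:CR44999. All 6 libraries had a peak at 13.5% of member regions and at 19.6% of all 4538 regions, and in a single library at 36.5% and 35.5%. Of the 27 member regions found in a single library, 13 were in lead replicate 1. Regions called in 3 control and 0 lead libraries numbered 2 of the 74 on the members, those of dpr4 and DIP-lambda, against 7 of all 4538 regions (0.154%). With peaks of a score of at least 47 the members had 0 such regions, that of dpr4 being lost through a control replicate 2 peak of score 46. Regions called in 3 lead and 0 control libraries numbered 0, against 0.441% of all regions. This condition is easier to meet with a library less. Without control replicate 2, or without control replicate 3, the count was 1. Without lead replicate 2, 4 regions had a peak in both other lead libraries and no control library. These were 2 on DIP-lambda and 1 each on DIP-beta and DIP-gamma. They make up 5.41% of the member regions, near the 4.73% of all regions with that pattern.

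By their median, peaks on the members ranked below the middle of their lists. Their median percentile by score was 41.7, 47.8 and 42.1 in lead replicates 1, 2 and 3, and 42.5, 43.3 and 29.9 in control replicates 1, 2 and 3, where the median over a whole list is at about the 50 percentile. Between 53.7% and 70.0% of each library's peaks on the members lay on DIP-lambda, so these medians rest mostly on that 1 gene. A peak in the top 5% of its list was found on DIP-lambda and dpr16 only, of the 32 genes.

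Genes of other surface or secreted proteins of the nervous system and its targets were set beside the Dpr and DIP genes from a list of 12. Of these, 5 were occupied in at least 1 library, where 12.2% of all genes were, and 4 in all 6, where 3.68% of all genes were. Most of these are long: Fas2, side, plum and tutl span between 40.6 and 73.2 kb. Of genes outside the Dpr and DIP families, 63.3% between 20 and 50 kb and 84.2% of 50 kb and over were occupied. In all 6 libraries the shares were 21.5% and 48.1%. Length did not sort the 12 genes fully. The gene bdl, of 7.28 kb, was occupied in all 6, where 6.11% of others between 5 and 20 kb were. The longer klg (62.4 kb) and beat-Ia (31.7 kb) had no peak in any library. The 4 in all 6 libraries were Fas2, a cell adhesion protein, side, an axon guidance ligand, and the immunoglobulin-superfamily genes bdl and tutl. Fas2 had 4, 1 and 1 peaks in lead replicates 1, 2 and 3, and 1, 1 and 2 in control replicates 1, 2 and 3. The fifth was plum, with 1 peak in lead replicate 1. The other 7 had no peak in any library, among them klg and Lac, which also encode immunoglobulin-superfamily proteins, and cDIP, whose product binds Dpr and DIP proteins. Of the 12, 0 were occupied in 3 libraries of a group and 0 of the other.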

How the data were processed

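Adult heads were profiled by MeDIP-seq in 3 lead and 3 control libraries, grouped by their titles. Per the labels' protocols, DNA was sonicated to 100–300 bp, and an input portion was set aside before immunoprecipitation. The submitters' processing notes name cutadapt, Bowtie2 2.1.0 and the build dm6. How peaks were called is not given in the sources used here. According to the peak names, the authors called each library against its own input. The deposited lists hold coordinates (1-based, since width equals end minus start plus 1) and a whole-number score per peak of unstated meaning. Repeated rows were dropped.

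Gene spans came from the RefSeq table of the same assembly (Release 6), without strand, exons or sequence; 58 mitochondrial or X/Y entries were left out. Overlapping peaks (at least 1 bp) were merged into regions. A merged region counted as on a gene if any part lay within 1 kb. Differences of group means were tested by exact permutation over the 20 assignments of library labels (two-sided). A peak's percentile is the share of its list with the same or a lower score.

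Values per library are given for members with a difference of at least 2 libraries, the 8 with most peaks and those with a peak in the top 5% by score. The members, lists, tests and alternatives were chosen with earlier results of these data known. Alternatives were a score of at least 47, equal numbers of peaks (1379), other windows and overlap rules, autosomal members, each library left out and a replicate block. Leaving out DIP-lambda was chosen after seeing the data. The functions were checked on simulated data with known answers. Software was Python 3.11.15 with scipy 1.17.1, pandas 2.3.3, numpy 2.4.6 and matplotlib 3.10.9.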

Additional observations from a re-analysis of the deposited data

How the results depend on the processing

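Group differences are lead minus control. Leaving out each library in turn, the difference of -1 occupied gene ranged from -2.33 to 0.667, that of 3 peaks from -4.5 to 12.5, and that of -0.139 points in the share of peaks from -0.207 to -0.0766. Genes occupied in all libraries then ranged from 4 to 5, those in lead libraries alone from 0 to 1, those in control libraries alone stayed at 1, and regions in lead libraries alone ranged from 0 to 4 and in control libraries alone stayed at 2; with a library less, these conditions are easier to meet. At equal numbers of peaks the difference in peaks turned to -0.667, and with a score of at least the median the share difference turned to 0.0271 points. Genes occupied in all 6 libraries numbered 2 with that score, 2 at equal numbers and 2 among autosomal members. Control-only genes numbered 0 with that score and 0 with the gene span alone. Control-only regions numbered 0 with that score, 1 at equal numbers, 1 with the gene span alone and 1 without DIP-lambda. Beyond fewer peaks or genes counted, the cause was not tested.

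Nothing in the labels pairs samples by replicate number. Deviations from the group means over 4538 regions correlated by 0.0114, -0.0147 and -0.00577 for equal numbers, so the numbers were not taken as pairs. The replicate block left the differences at -1, 3 and -0.139, with exact sign-flip p-values of 0.75, 0.75 and 0.5 (the smallest possible is 0.25). Unknown read depth limits every statement on an absent peak.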
